A study of Flaveria ramosissima and Flaveria robusta and Flaveria sonorensis with 9 samples.

Results

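Leaves of 2 Flaveria species that are intermediate between C3 and C4 photosynthesis were compared at the control CO2 level. These were F. ramosissima, labelled Type II C3-C4, and F. sonorensis, labelled Type I C3-C4. The comparison was chosen by species and CO2 label and used 6 of the 24 libraries in the deposited table, 3 numbered libraries per species. Both species were grown under light of 200 µmol m-2 s-1 at 22 °C and 70% humidity, with 16 h of light and 8 h of dark, and newly expanded mature leaves were taken. The CO2 level is given as 380 for the control and 100 for the low CO2 plants, which were kept at it for 4 weeks. The labels write both in a unit of light, so they are quoted as labelled. The low CO2 libraries of the same species, and the control libraries of F. robusta (C3) and F. trinervia (C4), were used only for comparison. The labels name no treatment beyond the CO2 level.

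C3-C4 species refix part of the CO2 that photorespiration releases. In Type I plants glycine made by photorespiration is moved to the bundle sheath, the cells around the leaf veins, where its decarboxylation releases CO2 close to Rubisco. Type II plants add a partial C4 cycle, in which phosphoenolpyruvate carboxylase fixes CO2 in the mesophyll and the C4 acid formed is decarboxylated in the bundle sheath. The step from Type I to Type II therefore marks the appearance of C4 cycle activity in models of C4 evolution. Each type was represented here by 1 species and 1 labelled sample, so that type, species and sample cannot be told apart.

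The table holds 29566 rows, each with a gene ID and a TPM value per library, an abundance corrected for transcript length and for the total of the library. The IDs carry no gene names, so neither the enzymes and transporters of the C4 cycle nor those of photorespiration could be looked up, and the leaf label could not be checked against marker genes. Rows were tested where the mean was at least 1 TPM in each of the 2 control groups, which left 10450 rows after 8 rows with an ID that occurs more than once had been set aside. There were 241 tested rows whose lower group mean lay between 1 and 1.1 TPM, and 245 rows just outside, with a lower mean between 0.9 and 1 TPM and the other mean at 1 TPM or more. F. ramosissima was the lower species in 209 of the former and 208 of the latter. Separate plants are not mentioned for the 3 libraries of a sample, so that p-values measure only the spread between these libraries, which may be technical. TPM keeps no read numbers, and the depth of the libraries is unknown.

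The F. sonorensis libraries were close to each other and those of F. ramosissima were not. Over the tested rows, the rank correlation between F. sonorensis control libraries lay between 0.976 and 0.984. In F. ramosissima it was 0.923 between libraries 1 and 2, 0.852 between 1 and 3 and 0.816 between 2 and 3. The median coefficient of variation of a row over 3 libraries was 39.6% in F. ramosissima and 11.6% in F. sonorensis. F. ramosissima library 3 stood apart, and results are therefore also given without it.

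Most of the summed TPM in the table fell on the tested rows in both species, with a smaller share in F. ramosissima. The table does not hold the full TPM of a library. Its rows summed to 91.8%, 91.2% and 91.6% of the full TPM in F. ramosissima libraries 1 to 3. In those of F. sonorensis they summed to 86.6%, 86.5% and 86.6%. Shares here and below are of the sum in the table, so the missing part, larger in F. sonorensis, is not counted. The tested rows held 74.1%, 75.7% and 75.1% of the summed TPM in F. ramosissima libraries 1 to 3, and 92.6%, 92.8% and 92.7% in those of F. sonorensis. The libraries of the species did not overlap, and library 3 of F. ramosissima lay between the other 2. The mean was 74.96% ± 0.790 (SD, n = 3) in F. ramosissima and 92.7% ± 0.116 in F. sonorensis (exact permutation test, two-sided p = 0.1, the smallest that 3 libraries against 3 can give). The tested rows were chosen by the group means of these same libraries and were not chosen anew in each permutation. This p-value is therefore not free of the choice of rows, and the shares are a description.

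Most of the remaining F. ramosissima signal lay on rows listed at 0 in F. sonorensis. In 5033 rows F. ramosissima averaged at least 1 TPM while all 3 F. sonorensis control libraries were listed at 0, and these rows held 24.2% ± 0.689 (SD, n = 3) of the F. ramosissima total. They included 340 rows of at least 100 TPM and 33 of at least 1000 TPM, with a highest mean of 10923 TPM. The converse set was smaller, with 1158 rows of at least 1 TPM in F. sonorensis and 0 in each F. ramosissima library. It held 4.48% ± 0.0860 (SD, n = 3) of the F. sonorensis total and included 34 rows of at least 100 TPM. A further 309 rows were below 1 TPM but above 0 in F. sonorensis and at least 1 TPM in F. ramosissima, and 3006 rows had the opposite pattern. The other 9602 rows were below 1 TPM in both.

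**Figure D1:**
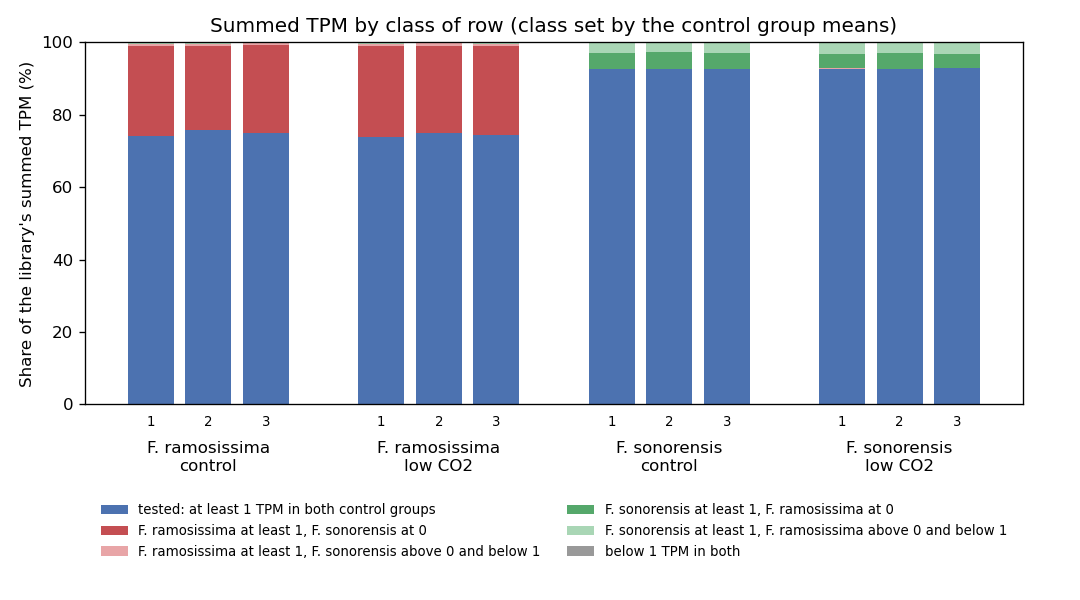
Share of the summed TPM (%) of each library held by 6 classes of rows, where the class is set by the means of the 3 control libraries of each species. Each bar is 1 library. Tested rows fill 73.8% to 75.7% of the F. ramosissima bars and 92.6% to 92.8% of the F. sonorensis bars, and rows at 0 in F. sonorensis control leaves fill most of the difference.

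These sets of rows held at low CO2. Of the 5033 rows, 4540 averaged at least 1 TPM in the low CO2 libraries of F. ramosissima, and 5015 (99.6%) were again at 0 in all 3 low CO2 libraries of F. sonorensis. Of the 1158 rows, 1001 averaged at least 1 TPM in low CO2 F. sonorensis and 1096 were at 0 in all low CO2 libraries of F. ramosissima. F. robusta averaged at least 1 TPM in 27.1% and F. trinervia in 27.9% of the 5033 rows, against 88.3% and 90.2% of the tested rows. In the converse set of 1158 rows the shares were similarly low, at 29.7% for F. robusta and 29.8% for F. trinervia. Low shares were thus not particular to the F. ramosissima set. The tested rows were chosen for at least 1 TPM in both intermediate species, so they are not a neutral baseline.

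The rows listed at 0 were not spread evenly over the numbering of the IDs. Below ID number 18900, the boundary in steps of 100 that best separated detection in F. ramosissima from that in the other species and was sought after the rates were seen, 71.5% of the rows were above 0 in 1 or more of the 6 libraries of F. ramosissima, 68.4% in F. sonorensis, 74.9% in F. robusta and 74.2% in F. trinervia. From number 18900 upward the share was 94.9% in F. ramosissima, and 44.5%, 50.7% and 52.1% in the other 3 species. This upper range held 50.9% of all rows and 83.4% of those at 1 TPM or more in F. ramosissima and listed at 0 in F. sonorensis. Only 59 of the 1158 rows of the converse set lay in it. Neither the numbering of the IDs nor the matching of genes between species is described in the sources used. The reads of each species were aligned to its own genome, so that a row at 0 cannot be told apart from a gene that was not placed on that row for that species.

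**Figure D2:**
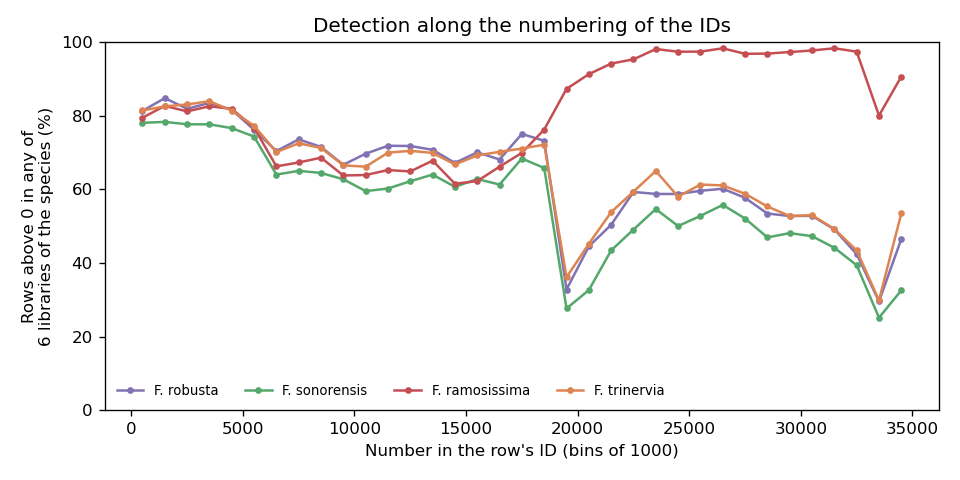
Percentage of rows above 0 in 1 or more of the 6 libraries of a species (y axis) along the number in the ID (x axis, bins of 1000). In the bins that start at 0 to 18000 the 4 species lie between 59.55% and 84.84%. In those that start at 19000 or above F. ramosissima lies between 80.1% and 98.4%, and the other species between 25.13% and 65.03%.

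Within the tested rows, TPM values were lower in F. ramosissima for most rows. The median TPM of a tested row was 8.17, 6.87 and 4.71 in F. ramosissima libraries 1, 2 and 3, and 17.9, 16.3 and 17.6 in F. sonorensis libraries 1, 2 and 3. Every F. ramosissima library was below every F. sonorensis library, with library 3 the lowest (exact permutation test, two-sided p = 0.1, the smallest possible). Here too the rows were chosen by the means of the libraries compared, and the permutations did not choose them anew. Across group means, the median tested row was at 6.95 TPM in F. ramosissima, 17.35 in F. sonorensis, 9.08 in F. robusta and 10 in F. trinervia, so that in the tested rows the Type I species had the highest and the Type II species the lowest median of the 4 species. Tested rows were chosen in the Type I and Type II species, and no test was made of this order. At low CO2 the median of the same rows was between 5.45 and 6.78 TPM in F. ramosissima and between 15.2 and 16.8 TPM in F. sonorensis.

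On the log2(TPM + 1) scale the difference between the species (F. ramosissima minus F. sonorensis) had a median of -1.20 over the 10450 rows. The middle of the distribution, from the 25th to the 75th percentile, ran from -1.91 to -0.36. At a Benjamini-Hochberg adjusted p below 0.05, limma called 792 rows higher (7.58% of the tested rows) and 6319 rows lower (60.5%) in F. ramosissima. Whole leaves were measured, in which a change in the share of a cell type and a change in the RNA per cell cannot be told apart. With TPM as deposited, all 3 F. ramosissima libraries lay above all F. sonorensis libraries in 926 rows (8.86%), and below them in 6923 rows (66.2%). These 2 counts include the general shift of -1.20 and are not given after scaling.

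The balance of higher and lower calls changed with the scale. Median-ratio scaling, which sets the typical ratio between libraries to 1 over the rows present in each of the 6, moved the median difference to -0.02. It used factors of 0.787, 0.673 and 0.472 for F. ramosissima libraries 1 to 3 and of 1.69, 1.56 and 1.67 for F. sonorensis. After this scaling limma called 2384 rows higher (22.8%) and 2216 lower (21.2%). All 792 rows called higher as deposited were among the former. Of the 6319 rows called lower, 2216 were still called lower, 31 were called higher, and 1242 had an estimated difference above 0. Scaling to an equal sum over the tested rows, an alternative added after the data were seen, left the shift in place, with a median of -1.004 and 942 higher and 5565 lower calls. Quantile normalization gave 2277 higher and 2635 lower calls. Statements on single rows below are given on both scales.

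**Figure D3:**
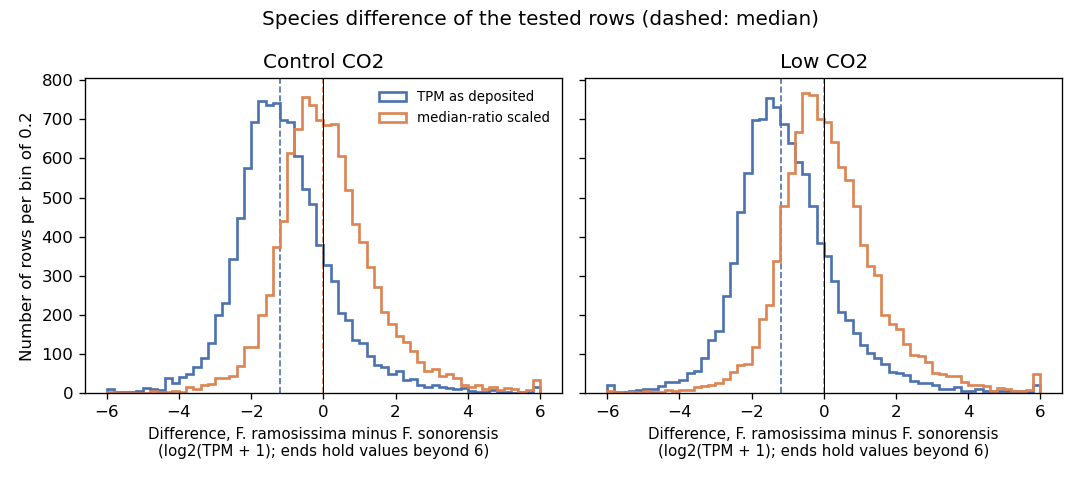
Number of tested rows (y axis, bins of 0.2) by the difference between F. ramosissima and F. sonorensis on the log2(TPM + 1) scale (x axis), at control and low CO2. With TPM as deposited (blue) the medians, drawn dashed, are -1.20 and -1.18. After median-ratio scaling (orange) they are -0.02 and 0.01.

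Differences of more than 2-fold were tested separately. With TPM as deposited, limma called 297 rows (2.84%) more than 2-fold higher and 2755 rows (26.4%) more than 2-fold lower in F. ramosissima. After median-ratio scaling it called 758 rows (7.25%) higher and 351 rows (3.36%) lower, and after quantile normalization 672 higher and 499 lower. In rows above 0 in both species, the minimum of 1 TPM left out 3006 with only F. ramosissima below it. It left out 309 with only F. sonorensis below it. Rows listed at 0 in 1 species went the other way, with 5033 left out at 0 in F. sonorensis and 1158 at 0 in F. ramosissima. With at least 1 TPM in either group, limma called 3443 rows higher and 5460 lower past 2-fold as deposited. The balance of directions is thus in part set by the minimum. In the tested rows the count over both directions, 3052 as deposited, was 1667, 1851 and 1613 without F. sonorensis control library 1, 2 or 3. By the size of the estimate alone, 357 rows were at least 3 (log2) higher and 100 rows at least 3 lower after scaling.

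The difference varied with the abundance class of the row. The classes were set by the mean of the same 6 libraries that were compared. A high value in 1 species can thus place a row in a higher class, and the trend may in part come from this choice. Of the 94 rows averaging 1000 TPM or more in the 6 libraries, 36 were called higher (38.3%) and 26 lower (27.7%) in F. ramosissima with TPM as deposited. The median difference of these rows was 0.09. Among the 868 rows of 100 to 1000 TPM, 183 were higher and 357 lower, with a median of -0.54. Among the 5290 rows of 10 to 100 TPM, 420 were higher and 3347 lower, with a median of -1.34. Among the 4198 rows of 1 to 10 TPM, 153 were higher and 2589 lower, with a median of -1.16. After scaling, 56 rows were higher and 7 lower in the most abundant class, whereas in the class of 10 to 100 TPM 1293 were higher and 1302 lower. Abundant rows were also measured with less spread, with a median coefficient of variation in F. ramosissima of 26.9% in the top class and 43.9% in the lowest.

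The share of the summed TPM taken by abundant rows was compared over all rows of the table. The 500 most abundant rows of a library held 64.4%, 68.1% and 75.2% of the summed TPM in F. ramosissima libraries 1, 2 and 3, and 60.2%, 63.0% and 61.1% in F. sonorensis. The groups did not overlap (difference 7.76 percentage points, exact permutation test, two-sided p = 0.1, the smallest possible). For the 100 most abundant rows, F. ramosissima libraries 1 to 3 had shares of 40.7%, 42.9% and 52.9%. Those of F. sonorensis had 39.0%, 41.0% and 39.7%. These groups overlapped (p = 0.2 in the same exact test), and without library 3 the difference of the means fell from 5.61 to 1.90 percentage points. At low CO2 the 100 most abundant rows held 45.2% ± 2.18 (SD, n = 3) in F. ramosissima and 39.9% ± 1.72 in F. sonorensis.

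The identity of the abundant rows also differed. The 20 most abundant rows of each species had 7 rows in common (35%), the 100 most abundant had 48 (48%) and the 500 most abundant had 255 (51%). Between the CO2 levels of 1 species the overlap was larger, with 84 of 100 rows in F. ramosissima and 79 of 100 in F. sonorensis. Of the 100 most abundant rows of F. ramosissima 23 were listed at 0 in F. sonorensis, and of the 100 most abundant of F. sonorensis 5 were listed at 0 in F. ramosissima.

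F. ramosissima libraries 1, 2 and 3 had 16564, 15875 and 12813 rows at 1 TPM or more. The F. sonorensis libraries had 14492, 14513 and 14594. Library 3 of F. ramosissima was the lowest of the 6 and its libraries 1 and 2 were the highest. The means of 15084 ± 1997 (SD, n = 3) and 14533 ± 53.9 differed by 551 rows, which is below the SD in F. ramosissima (two-sided p = 0.7, exact permutation test). This held for 1 TPM on the deposited scale only. The difference was 2999.7 rows after median-ratio scaling, -1871 at 5 TPM and 1686.5 without F. ramosissima library 3, each with the smallest p that the exact test can give (p = 0.1). It turned to -189 without F. ramosissima library 1.

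Leaving out F. ramosissima library 3 raised the counts of calls, and more so with scaling. As deposited, limma then called 1074 rows higher (10.3%) and 6583 lower (63.0%), with a median difference of -1.02. With scaling and without library 3 it called 3135 rows higher (30.0%) and 3030 lower (29.0%). A set of 2947 rows was called in the same direction in each of the 4 fits, which were those with and without library 3 and with and without scaling. Of these, 758 were higher and 2189 lower in F. ramosissima, and 617 and 1400 of them averaged at least 10 TPM over the 6 libraries. Fits with scaling shift every row upward in F. ramosissima, so the higher rows of this set were limited by the deposited values and the lower rows by the scaled values.

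The rows higher in F. ramosissima in all 4 fits were mostly abundant there. Their median level was 55.1 TPM in F. ramosissima and 11.96 TPM in F. sonorensis, and 16.9 in F. robusta and 16.5 in F. trinervia. The median difference was 1.63 (log2) as deposited and 2.88 after scaling. The rows lower in all 4 fits had a median of 3.11 TPM in F. ramosissima, 23.7 in F. sonorensis, 8.27 in F. robusta and 9.34 in F. trinervia, with a median difference of -2.43 as deposited and -1.26 after scaling. The rows were chosen for the difference between the intermediate species, and in both sets the medians of the C3 and the C4 species lay between theirs. F. robusta and F. trinervia were both at 0 in 65 of the higher rows (8.58%) and 48 of the lower rows (2.19%), against 3.13% of all tested rows. ID numbers from 18900 upward made up 42.2% of the higher and 48.4% of the lower rows, against 43.6% of all tested rows.

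A named row had to average at least 10 TPM over the 6 libraries, be called as deposited, after scaling and without library 3, and have libraries that did not overlap. This held for 612 higher and 1441 lower rows, and the 2 with the largest deposited difference each way are named. With no gene names in the files, other IDs are not given.

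Gene01725 was at 1281, 892 and 2549 TPM in F. ramosissima libraries 1, 2 and 3, and at 1.64, 5.44 and 3.24 TPM in those of F. sonorensis. Library 3, otherwise low in detected rows, was the highest for this gene. The difference was 8.42 (SE 0.47, limma adjusted p = 6.37e-05) on the log2(TPM + 1) scale, and 9.58 after scaling (adjusted p = 0.00014). Over the 12 alternatives recorded for it the adjusted p lay between 3.18e-06 and 0.000804. At low CO2 its mean was 1897 ± 197 TPM (SD, n = 3) in F. ramosissima and 3.28 ± 0.987 in F. sonorensis. The C3 F. robusta and the C4 F. trinervia held it at 4.09 ± 0.361 and 3.68 ± 0.922 TPM. Only F. ramosissima thus had a high listed value on this row among the 4 species at control CO2. How genes were matched between species is not described, so this level and those below are values listed on a row.

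Gene23771 was at 504, 818 and 1020 TPM in F. ramosissima, and between 0.99 and 1.37 TPM in F. sonorensis. Its difference was 8.39 (SE 0.31, limma adjusted p = 1.6e-05), and 9.41 after scaling (adjusted p = 5.72e-05, and from 1.92e-07 to 0.00043 over 12 recorded alternatives). At low CO2 it averaged 563 ± 30.8 TPM (SD, n = 3) in F. ramosissima and 1.23 ± 0.282 in F. sonorensis. Among the control leaves of the other species it was listed at 0 in each F. robusta library and stood at 7007 ± 165 TPM in F. trinervia. Its order over the species was thus C4 first, then Type II, with the Type I species near 1 TPM and the C3 species at 0.

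Gene23772, the next number in the table, showed the opposite order between the intermediate species. It was at 2.08, 3.32 and 3.25 TPM in F. ramosissima, and at 4820, 5736 and 5239 TPM in F. sonorensis. The difference was -10.42 (SE 0.23, limma adjusted p = 3.32e-06), and -9.18 after scaling (adjusted p = 3.37e-05, and from 2.9e-08 to 0.000194 over 12 recorded alternatives). At low CO2 it averaged 1.58 ± 0.548 TPM (SD, n = 3) in F. ramosissima and 4505 ± 591 in F. sonorensis. F. trinervia held it at 607 ± 121 TPM and F. robusta at 1.49 ± 0.631 TPM. Whether Gene23771 and Gene23772 are similar copies, among which the estimation of TPM could split reads, was not tested.

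Gene10792 was at 0 TPM in F. ramosissima libraries 1 and 2 and at 21.7 TPM in library 3, which alone brought its mean above the minimum. In F. sonorensis it was at 938, 1032 and 912 TPM. The difference was -8.41 (SE 1.13, limma adjusted p = 0.000631), and -7.35 after scaling (adjusted p = 0.00676). With 2 libraries at 0 its size depends on the pseudocount and was -10.64 with a pseudocount of 0.1. Over the 13 alternatives recorded for it the adjusted p lay between 2.14e-06 and 0.00676. Without library 3 the row is at 0 in both remaining F. ramosissima libraries and below the minimum, so that its call without library 3, which the rule for named rows used, rests on the pseudocount. At low CO2 it was at 0, 9.80 and 0 TPM in F. ramosissima and between 618 and 894 TPM in F. sonorensis. It was listed at 0 in the control libraries of F. robusta and F. trinervia, so that a high level was seen in F. sonorensis only among these species.

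**Figure D4:**
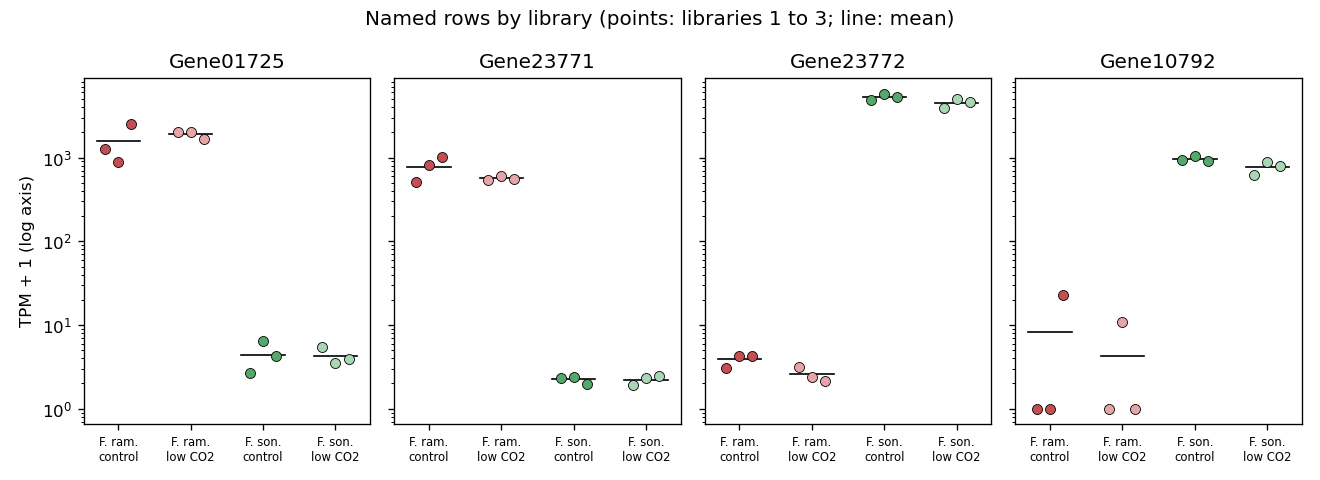
TPM + 1 (log axis) of the 4 named rows in the control and low CO2 libraries of F. ramosissima and F. sonorensis. Points are libraries 1 to 3 and lines are means. Control libraries that do not overlap were a condition for naming a row. The species do not overlap at low CO2 either in any of the 4 rows. Gene10792 is at 0 TPM in 2 of 3 F. ramosissima libraries at each level.

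The same species difference was then measured at low CO2, in libraries that the control comparison did not use. Over the 10450 rows limma called 1134 rows higher (10.9%) and 7253 lower (69.4%) in low CO2 F. ramosissima as deposited, and 3526 higher (33.7%) and 3352 lower (32.1%) after scaling. The median difference was -1.18 as deposited, close to the -1.20 at control CO2. Of the 792 rows called higher at control CO2, 692 (87.4%) were also called higher at low CO2, and 2 were called lower. Of the 6319 rows called lower, 5981 (94.7%) were also called lower and 11 higher. After scaling, 92.9% of the higher and 88.0% of the lower rows kept their call. Across the rows, which are not independent and which share a species and an alignment at the 2 CO2 levels, Pearson's r between the control and the low CO2 difference was 0.91 (Spearman 0.888). Of the rows called in all 4 control fits, 752 of 758 higher rows and 1936 of 2189 lower rows had the same call at low CO2 after scaling.

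Whether the species difference changed with the CO2 level was tested directly. The interaction in a model of the 12 libraries was called in 33 rows by limma, in 25 of them (0.239%) toward a higher and in 8 (0.0766%) toward a lower value of F. ramosissima relative to F. sonorensis at low CO2. There were 1033 rows with an unadjusted p below 0.05. After scaling 31 rows (0.297%) were called toward a higher and 11 (0.105%) toward a lower value, and 25 rows were called on both scales. The 33 estimates lay between -3.96 and 5.92 (log2). In 28 of the 33 rows the mean of F. sonorensis changed by at least 1 (log2) between the CO2 levels, and in 7 that of F. ramosissima did. The shares of all tested rows with such changes are not given, so these counts have no background to be read against. The count of 33 depended on single libraries: it was 68, 80 and 119 without F. ramosissima control library 1, 2 or 3, and between 6 and 21 without any 1 of the other 9, which are the F. sonorensis control libraries and the low CO2 libraries of both species. None of the 4 named rows was called (limma adjusted p from 0.797 to 0.999).

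**Figure D5:**
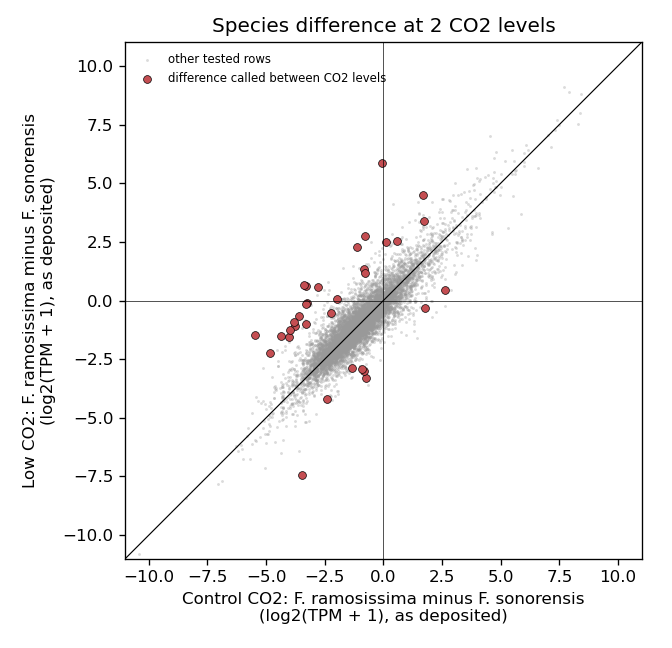
Difference between F. ramosissima and F. sonorensis at low CO2 (y axis) against that at control CO2 (x axis), both on the log2(TPM + 1) scale with TPM as deposited. Each point is 1 of 10450 tested rows, the diagonal marks equal differences, and the 33 rows called in the interaction are drawn in red away from it.

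The study orders the 4 species from C3 through the intermediate types to C4, and the step from Type I to Type II was therefore set beside the contrast of the C4 F. trinervia with the C3 F. robusta. No library is shared between these comparisons. On the tested rows after scaling, limma called 3416 rows higher (32.7%) and 3354 lower (32.1%) in F. trinervia. Of the 2384 rows higher in F. ramosissima, 33.1% were higher and 32.2% lower in F. trinervia. Of the 2216 rows lower in F. ramosissima, 32.3% were higher and 34.1% lower. These shares are close to those over all tested rows. In the rows called in all 4 control fits, F. trinervia was higher in 251 and lower in 237 of the 758 higher rows, and higher in 705 and lower in 748 of the 2189 lower rows. Across the tested rows the Pearson correlation of the differences was -0.00189 (Spearman -0.00831). Rows are not independent replicates, and the correlation is given as a description.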

How the data were processed

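The authors deposited 1 table of TPM values, with 3 numbered columns per labelled sample. Per their methods, 150 bp paired-end reads were aligned to the genome of each species with STAR and TPM was estimated with RSEM. The processing notes also name edgeR, whose role the sources do not state. Each column was mapped through the code its name shares with 1 sample's label, with 0 columns unused. The methods state other growth conditions than the labels, which were followed here. RSEM divides reads among similar copies, so values of near-identical genes are uncertain.

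TPM values were used as deposited or, where stated, after median-ratio scaling. Tests were made on log2(TPM + 1), which understates differences of low rows, with limma 3.58.1 in R 4.3.3 (eBayes or treat with a mean-variance trend, two-sided, Benjamini-Hochberg over all 10450 rows, threshold 0.05). Apart from those with library weights, the fits assumed the same residual variance of a row in both species. The libraries of F. ramosissima spread more than those of F. sonorensis. The treat test asked for a difference over 2-fold. Single values per library were compared by exact permutation tests. Fits that left 1 library out kept the tested rows. The fits were run on simulated data with known changes. The only check was that the median estimate lay near the change added, and the rate of false calls is not given here. Members, rows and alternatives were chosen with earlier results of these data known. Alternatives covered scaling, pseudocount, minimum TPM, variance model, replicate block and single libraries. The F. ramosissima sample pooled from several organs was not used here. Named rows were the 2 with the largest difference each way among those meeting the rule in the text.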

Additional observations from a re-analysis of the deposited data

Results flagged for a closer look

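The species difference differed between the CO2 levels in 33 of 10450 rows, by a limma test of the difference itself at an adjusted p below 0.05. The estimates had a median size of 2.58 (log2), 28 of the rows averaged at least 10 TPM in the control leaves, and the sign of the species difference turned over between the CO2 levels in 10. Of all 10450 tested rows, 4198 averaged below 10 TPM in the control leaves. The sign was the same at both CO2 levels in 92.1% of all tested rows.

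Signal was also seen in rows that the comparison left out. In F. ramosissima control leaves 5033 rows reached a mean of 1 TPM while the F. sonorensis control libraries were at 0, and these rows held 24.16% of the summed TPM.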

How the results depend on the processing

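The depth of the libraries is unknown, so that precision rests on the spread between 3 libraries, and type cannot be told apart from species. The count of 7111 rows called at control CO2 was 4600 after median-ratio scaling, 3411 with at least 5 TPM in each group and 15825 with at least 1 TPM in either group. It ranged from 5853 to 7657 without single libraries. Added after the data were seen, rows with ID numbers below 18900 gave 3878 calls, and 2787 with scaling. These counts test other numbers of rows. The count of 3052 rows past a 2-fold difference was 1109 after median-ratio scaling, 1171 after quantile normalization, 1083 at 5 TPM, 8903 with either group at 1 TPM and 1628 with scaling and without F. ramosissima library 3. It ranged from 1613 to 3464 without single libraries. The median difference of -1.20 was -0.018 after median-ratio scaling and -0.082 after quantile normalization, and from -1.33 to -1.02 without single libraries. At low CO2 the 8387 calls were 4500 at 5 TPM and 17266 with either group at 1 TPM, and 7922 to 8649 without single libraries. The 33 interaction calls were 76 after quantile normalization, 242 with either group at 1 TPM, 122 with library weights, 139 with scaling and without F. ramosissima control library 3, and 6 to 119 without single libraries. The difference in rows detected, 551, was 2999.7 after median-ratio scaling, -1871 at 5 TPM and -189 to 1686.5 without single libraries, and that in the share of the top 100 rows, 5.61 percentage points, was 12.9 over the tested rows, -1.94 for the top 10 and 1.90 to 8.00 without single libraries. The 4 named rows kept their direction and call in each alternative in which their values were recorded. For Gene10792 the fits without F. ramosissima library 3 compare listed zeros. Their values were not recorded in some fits, such as those without a mean-variance trend and with 1 TPM in either group. Whether library numbers pair the samples is not known. The correlation of same-numbered deviations was -0.0137, 0.315 and -0.13, and that of differently numbered ones lay between -0.336 and 0.276. Deviations from a mean of 3 libraries depend on each other, so these values cannot decide it. With the library number as replicate block 6995 rows were called at control CO2.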
